A study of Mus musculus with 5 samples.

Results

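Clu, Spp1, Cd44, Cd24a, Anxa2, Anxa3, Tspan8, Epcam, Cldn4 and Cldn7 encode secreted and surface proteins associated with acinar-to-ductal metaplasia. The 10 genes were chosen by symbol, and all 10 were among the 23284 gene symbols of the deposited count tables. The libraries hold RNA of primary acinar cells, which make and secrete the digestive enzymes of the pancreas, from 8-week-old C57BL/6 mice. As controls served p48-Cre mice (2 libraries), with Cre recombinase under the p48 (Ptf1a) locus. The knockouts (3 libraries) were of the genotype Arid1afl/fl;p48-Cre, where that Cre deletes a floxed part of Arid1a, which encodes a subunit of the SWI/SNF chromatin remodeller. Both groups thus carry p48-Cre, and because the p48 locus is active in pancreatic progenitors, duct and islet cells can recombine as well as acinar cells. Nothing in the labels says that each library is a separate animal, and p-values therefore measure a spread between libraries that may be technical.

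In acinar-to-ductal metaplasia, acinar cells lose their enzymes and take on features of duct cells. The process accompanies pancreatitis and regeneration, and it can precede pancreatic neoplasia. Secreted clusterin and osteopontin, the hyaluronan receptor CD44, epithelial adhesion molecules and tight junction claudins are among the proteins used to follow it, and several of them are also made by normal duct cells. In RNA of a bulk preparation, fewer cells of a type and less RNA per cell cannot be told apart.

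The groups differed in depth before any gene was compared. Without the ribosomal precursor Rn45s and the gene Lars2, totals were 67514 and 72006 counts for the 2 control libraries, while those of the knockouts ran from 3155357 to 3568906. Rn45s took 72.6% and 82.2% of the control counts and 6.78% to 10.9% of the knockout counts, so neither depth nor Rn45s share can be told apart from genotype. Levels are given as CPM, counts scaled to a library total of 1000000 without both genes, on which 3 counts, taken as the limit of detection, equal 44.4 and 41.7 CPM in the controls and at most 0.951 CPM in a knockout. The knockouts also differed among themselves, since listed enzyme and granule genes made up 79.9%, 68.4% and 87.7% of these counts in knockouts 1, 2 and 3, against 66.6% and 70.6% for the control pair. Defining acinar markers summed to between 280100 and 369700 CPM in all 5 libraries, but single genes of that list moved in opposite directions. Of 11 tested, 1 was called higher and 1 lower in the knockouts, beside 1.8% of all genes tested (edgeR). Cel, the lower, had 11660 and 35150 CPM in controls against 3429, 5494 and 5580 CPM in knockouts. Amy1, the higher, had 14.8 and 0 CPM in controls, from 1 and 0 counts, against 1298, 895.5 and 46.0 CPM in knockouts. Arid1a itself had 0 and 3 counts in the control pair and 44, 121 and 42 counts in the knockouts, and since reads of exons outside the deleted part are included, this does not check the genotype.

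None of the 10 genes passed the test between knockout and control, beside 1.8% of all genes tested. On the CPM scale 6 stood higher in the knockouts (Clu, Cd24a, Tspan8, Epcam, Cldn4 and Cldn7) and 4 stood lower (Spp1, Cd44, Anxa2 and Anxa3). Clu was the one gene whose knockout values all lay above both controls, a pattern found in 35.6% of tested genes. That share includes genes without a control count, so it is not a matched background. The knockout libraries disagreed with each other by up to 54.9-fold for a single gene. Knockout 2 was the highest of the 3 for all 10 genes, as for 90.1% of tested genes.

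**Figure D1:**
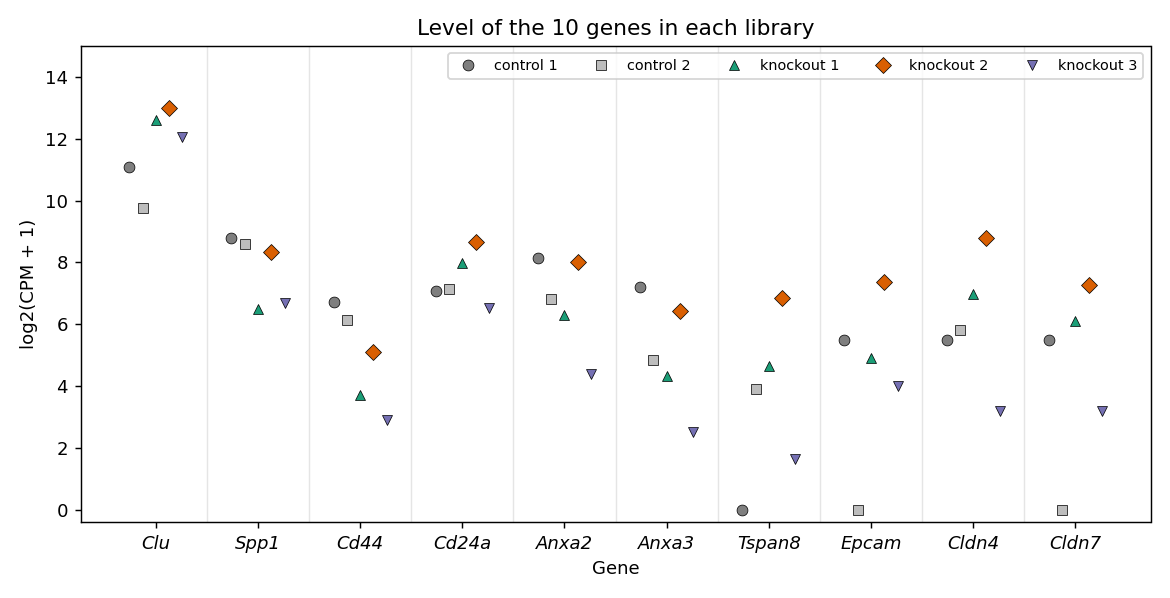
Level of each gene in each library as log2(CPM + 1), with 1 point per library and 0 for a gene without a count. Knockout 2 is the highest knockout for all 10 genes, as for 90.1% of tested genes. Only Clu has every knockout above both controls, as 35.6% of tested genes do.

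Clu encodes clusterin, a secreted chaperone and apolipoprotein that acinar cells make on injury. It had 2163 and 875 CPM in controls against 6188, 8078 and 4237 CPM in knockouts. The lowest knockout stood above the higher control, and the groups did not overlap. The control values rest on 146 and 63 counts, the most of any member, although they lay far apart. Group means came to 1519 ± 910 CPM (SD, n = 2) and 6167 ± 1921 CPM (SD, n = 3). The fitted log2 fold change was 2.02 ± 0.70 (SE), with an adjusted p = 0.107 from edgeR's quasi-likelihood test. Without control 1, Clu passed (log2 fold change 2.82, adjusted p = 0.0333, edgeR), and without control 2 it had a log2 fold change of 1.51 (adjusted p = 0.606). Over all alternatives its adjusted p ran from 5.11e-05 with DESeq2 to 0.866, and its log2 fold change from 1.51 to 4.20. Its pooled share in the knockouts was 4.14 times that of the controls, with an exact 95% interval of 3.62 to 4.77 that covers counting error only, as do all such intervals here.

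Spp1 encodes osteopontin, a secreted ligand of integrins and CD44 that duct cells and macrophages make. It had 444 and 389 CPM in controls against 88.4, 324 and 102 CPM in knockouts. Every knockout lay below both controls, although knockout 2 came close to control 2. The control values came from 30 and 28 counts, and the pooled ratio was 0.424 (exact 95% interval 0.327 to 0.561). The log2 fold change was -1.28 ± 1.01 (SE; adjusted p = 0.582, edgeR) and turned positive under TMM, RLE and whole-total scaling, up to 1.04. Spp1 shares 9.05% of the 50-base words of its longest transcript with the gene model Gm42793, which overlaps it on the same strand. The annotation behind the counts is not given, and the effect of this overlap on the Spp1 counts was not tested.

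Cd44 encodes a surface receptor for hyaluronan and osteopontin that leukocytes carry as well as metaplastic epithelium. It had 104 and 69.4 CPM in controls, from 7 and 5 counts, against 12.0, 33.1 and 6.58 CPM in knockouts. As for Spp1, every knockout lay below both controls, a pattern found in 11.2% of tested genes. The pooled ratio was 0.206 (exact 95% interval 0.115 to 0.405) and the log2 fold change -2.32 ± 1.41 (SE; adjusted p = 0.491, edgeR), the lowest of the 10 genes. Its sign was negative under all 6 other scalings, reaching -0.03 with totals over all counts. The controls held 12 counts of Cd44 in all. Receptor genes of olfactory and vomeronasal neurons had a mean of 0.0703 counts per gene in each control, with a highest count of 11 in control 1 and 21 in control 2. In sum they had 1511 and 1417 CPM in the controls against 11.7, 19.6 and 32.6 CPM in the knockouts. The part of such reads in the counts of Cd44, or of any other gene with few control counts, was not tested.

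Cd24a encodes a small lipid-anchored sialoglycoprotein of epithelial progenitors and lymphocytes. Its controls stood close together at 133 and 139 CPM, from 9 and 10 counts, and its knockouts at 252, 407 and 92.1 CPM. Knockouts 1 and 2 were above both controls and knockout 3 was below both, so the groups overlapped. The pooled ratio was 1.86 (exact 95% interval 1.19 to 3.10) and the log2 fold change 0.88 ± 1.11 (SE; adjusted p = 0.654, edgeR). DESeq2 called Cd24a higher (adjusted p = 0.0111), the one alternative that did. The gene shares 3.9% of its 50-base words with Gm6212.

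Epcam encodes an adhesion molecule of simple epithelia that is strong on duct cells, and Tspan8 a tetraspanin of digestive epithelia that associates with it. Epcam had 44.4 and 0 CPM in the controls, from 3 and 0 counts, where a count of 0 allows up to 41.7 CPM. The knockouts had 28.8, 163 and 14.9 CPM of Epcam, so that only knockout 2 was above control 1. Tspan8 had 0 and 13.9 CPM in the controls, with a count of 0 in control 1 allowing up to 44.4 CPM, and 24.4, 114 and 2.09 CPM in the knockouts. Knockout 3 lay within the range of the controls for both genes. Pooled ratios were 3.34 for Epcam (exact 95% interval 1.14 to 16.2) and 6.80 for Tspan8 (1.22 to 269), the latter resting on 1 control count. Neither passed, with log2 fold changes of 1.66 ± 1.59 for Epcam (SE; adjusted p = 0.597, edgeR) and 2.71 ± 2.01 for Tspan8 (adjusted p = 0.573). Without knockout 2 the values were 0.00 for Epcam and 0.89 for Tspan8. Epcam had 0.64 without control 2 and 10.45 without control 1, and Tspan8 had 1.75 without control 1 and 9.89 without control 2. The values of 10.45 and 9.89 are fitted against a lone control with a count of 0 and depend on the prior count. Where exons of Tspan8 and of 4930422I22Rik overlap on opposite strands, their reads cannot be told apart, because the kit does not mark strand.

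Cldn4 and Cldn7 encode claudins, the sealing proteins of tight junctions, and both proteins are found in duct epithelium and in metaplastic ducts. Cldn4 had 44.4 and 55.6 CPM in controls, from 3 and 4 counts, against 124, 443 and 8.07 CPM in knockouts. Cldn7 had 44.4 and 0 CPM in controls, from 3 and 0 counts, against 68.5, 152 and 8.07 CPM in knockouts. Knockouts 1 and 2 were above both controls for both claudins, and knockout 3, with 27 counts of each, was below both controls for Cldn4 and between them for Cldn7. The pooled ratio was 3.96 for Cldn4 (exact 95% interval 1.92 to 9.86) and 3.63 for Cldn7 (1.24 to 17.6). Their log2 fold changes were 1.94 ± 1.27 (SE; adjusted p = 0.53, edgeR) and 1.80 ± 1.57 (adjusted p = 0.586). Without knockout 2 the value for Cldn4 was 0.40 and that for Cldn7 0.80, and without knockout 3 they were 2.50 and 2.34. Cldn7 had 0.78 without control 2 and, against the lone control with a count of 0, a value of 10.60 without control 1 that depends on the prior count.

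Anxa2 and Anxa3 encode annexins, calcium-dependent proteins that bind membrane phospholipids, and annexin A2 forms a surface complex with S100a10. Anxa2 had 281 and 111 CPM in controls against 78.6, 258 and 20.0 CPM in knockouts. Anxa3 had 148 and 27.8 CPM in controls, from 10 and 2 counts, against 19.0, 86.0 and 4.78 CPM in knockouts. In both genes knockout 2 lay between the controls and the other knockouts lay below them. The pooled ratios were 0.635 for Anxa2 (exact 95% interval 0.434 to 0.967) and 0.442 for Anxa3 (0.250 to 0.863). The log2 fold changes of -0.72 ± 1.11 (SE; adjusted p = 0.713, edgeR) and -1.26 ± 1.34 (adjusted p = 0.613) turned positive under TMM and whole-total scaling and without control 1, and that of Anxa2 also under RLE. Anxa2 shares 2.24% of its 50-base words with Gm16144 on the opposite strand, and Gm42603 overlaps exons of Anxa3 on the same strand.

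Promoter sequences are shown for the members whose 250 bases before the annotated start hold a match to 1 of the motifs searched on both strands, TGANTCA, bound by AP-1, and ACCGGT, the core bound by grainyhead-like factors. The genes were matched by symbol to RefSeq (build GRCm38.p6), where 7 of 10 members had a promoter entry. Capitals mark the matches, and the bases run 5′ to 3′ on the strand of the gene.
Cldn4, chr5:134946935-134947184, minus strand: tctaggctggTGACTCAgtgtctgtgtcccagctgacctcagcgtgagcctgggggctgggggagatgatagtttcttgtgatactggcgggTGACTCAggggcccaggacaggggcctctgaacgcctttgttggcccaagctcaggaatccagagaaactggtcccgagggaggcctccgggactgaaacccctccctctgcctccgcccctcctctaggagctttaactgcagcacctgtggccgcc
Epcam, chr17:87635729-87635978, plus strand: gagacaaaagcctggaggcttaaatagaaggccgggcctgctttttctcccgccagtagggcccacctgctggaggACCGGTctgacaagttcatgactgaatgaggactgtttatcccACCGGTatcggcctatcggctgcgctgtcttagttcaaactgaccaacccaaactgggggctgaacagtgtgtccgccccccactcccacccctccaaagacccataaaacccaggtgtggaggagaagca
Anxa2, chr9:69453433-69453682, plus strand: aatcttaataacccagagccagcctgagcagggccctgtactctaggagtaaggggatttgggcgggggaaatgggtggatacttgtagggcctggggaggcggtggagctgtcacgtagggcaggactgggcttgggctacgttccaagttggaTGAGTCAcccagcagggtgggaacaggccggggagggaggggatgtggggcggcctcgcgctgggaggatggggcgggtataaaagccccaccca
Cldn4 held 2 matches to TGANTCA and Anxa2 held 1, a motif found in 6.75% of the 32851 promoter windows of this length. Epcam held 2 matches to ACCGGT, found in 1.86% of the windows. The windows of Spp1, Cd44, Tspan8 and Cldn7 held neither set of letters. No binding was measured, so these matches describe the sequence alone.

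The members' calls were read against those of all genes. Of 8291 genes tested, 149 (1.8%) were called at an adjusted p under 0.05 (edgeR), 16 higher (0.193%) and 133 lower (1.6%), and of the 10 members, all of which passed the low-count filter, none was called, a count near that background. At an unadjusted p under 0.05 there was 1 member, Clu, against 1072 of all genes. DESeq2 called 2 of the 10 members (Clu and Cd24a), beside 1063 of all 8291 genes (12.8%), or 25.9% of the 4112 genes to which it gave an adjusted p. With limma-voom no member was called, beside 0.519% of all genes. Every knockout lay above both controls in 35.6% of tested genes and in 1 of the 10 members. Every knockout lay below both controls in 11.2% of tested genes and in 2 members, Spp1 and Cd44. The 33.5% of tested genes without a control count need only a count in each knockout to lie above, and cannot lie below. Every member had a control count, so these shares are not a matched background for the members. Without knockout 3, the members with every knockout above both controls numbered 5: Clu, Cd24a, Tspan8, Cldn4 and Cldn7. Without control 1 they were Clu, Epcam and Cldn7, and without control 2 Clu and Tspan8. In these cases Epcam, Cldn7 and Tspan8 stand against a lone control with a count of 0. Tspan8 had 24.4 CPM in knockout 1, under the 44.4 CPM that its count of 0 in control 1 allows. Without control 2 or without knockout 2, Anxa2 and Anxa3 joined Spp1 and Cd44 among the members with every knockout below, to make 4. Shares over all genes were not taken for these smaller sets of libraries, so such counts describe the members alone.

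The median log2 fold change of the members was 1.27, against 0.22 over all genes tested. Of those genes 33.5% had no control count, and their fitted values depend on the prior count. With such genes set at 3 counts over both controls (21.5 CPM), the median log2 pooled ratio was -1.11 over all genes and 1.32 over the members, none of which lacked control counts. The members ran from -2.28 to 2.77 on that scale, and their median lies between the values of Cd24a and Epcam, both among the 6 higher genes. Genes with some but fewer than 3 control counts kept their own value, such as Tspan8 with 1 count at 7.17 CPM. The floor changed no member's value, so members and all genes were not treated alike. Another scaling moved all values together: under TMM on all counts the medians were 2.74 for the members and 2.05 for all genes. The members' median was 0.17 without knockout 2, 0.71 without control 2 and 0.50 with limma-voom, and it was -0.72 over the 7 members with at least 1 count in every library. The all-gene medians in these settings were -0.61, 5.57, -0.81 and -1.38, in the same order. The value of 5.57 is fitted against a lone control.

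**Figure D2:**
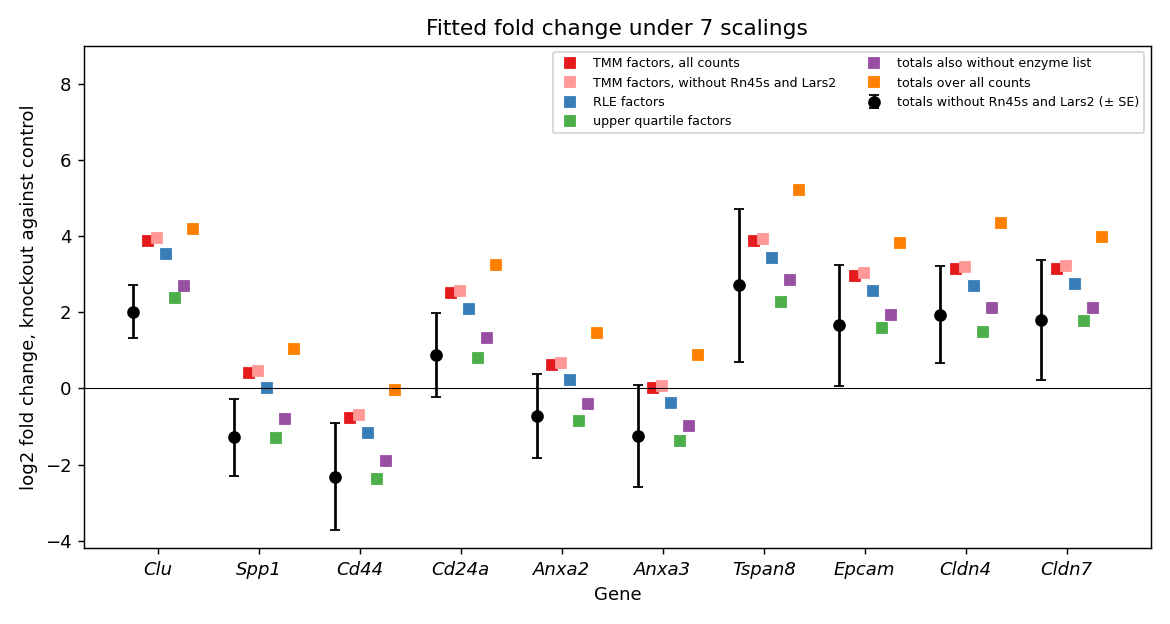
Fitted log2 fold change of each gene, knockout against control, from edgeR under 7 scalings. Black points with bars give the value ± SE with totals without Rn45s and Lars2, and squares give the others. Clu, Cd24a, Tspan8, Epcam, Cldn4 and Cldn7 are above 0 under all 7, Cd44 is below 0 under all 7, and Spp1, Anxa2 and Anxa3 change sign.

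The sum of the 10 genes was mostly Clu. It was 3407 and 1680 CPM in controls against 6884, 10060 and 4496 CPM in knockouts, and Clu made up 63.5% and 52.1% of the control sums and 89.9%, 80.3% and 94.2% of the knockout sums. Without Clu, the other 9 genes summed to 1244 and 806 CPM in controls against 696, 1981 and 259 CPM in knockouts, so the groups overlapped. The ratio of the group means was 2.81 with Clu and 0.955 without it. These 9 genes rest on only 84 and 58 control counts, and on 2197, 7069 and 866 knockout counts.

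The order of the genes was similar between libraries of either group, while their levels differed between the knockouts. Spearman's rho across the 10 genes, as a description of genes that share libraries, was 0.98 between knockouts 1 and 2, 0.81 between knockouts 1 and 3, and 0.79 between knockouts 2 and 3, beside 0.83 between the controls. Without Clu these values were 0.97, 0.74, 0.71 and 0.77 in the same order. Knockout 2 was highest for all 10 members, as it was for 90.1% of all tested genes. Knockout 3 was lowest for 9 members, against 81.4% of tested genes, and the exception was Spp1, where knockout 1 was lowest with 88.4 CPM beside 102 CPM. The pattern with knockout 2 highest and knockout 3 lowest held for 9 of 10 members and 77.1% of tested genes. That order was therefore common to most genes of these libraries.

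The size of the gap between knockouts 2 and 3 differed widely among the members. The ratio of knockout 2 to knockout 3 was 1.91 for Clu, 3.17 for Spp1, 4.42 for Cd24a and 5.03 for Cd44. Epcam stood at 10.9, Anxa2 at 12.9, Anxa3 at 18.0 and Cldn7 at 18.9. The highest were Tspan8 at 54.5 and Cldn4 at 54.9. The median was 11.9 over the members and 3.99 over all tested genes with a knockout 3 count. Among the 7451 tested genes with at least 30 knockout counts and a count in knockout 3, Cldn4 and Tspan8 lay at percentile 99.3, Cldn7 at 93.1, Anxa3 at 92.6, Anxa2 at 87.9 and Epcam at 85.0. Clu lay at 19.0, so the secreted gene with the highest level was also the member that varied least.

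Because enzyme genes took a larger share of knockout 3, levels were also scaled to totals without them. On that scale the ratio of knockout 2 to knockout 3 was 21.4 for Cldn4, 21.3 for Tspan8, 7.36 for Cldn7, 7.02 for Anxa3, 5.04 for Anxa2 and 4.27 for Epcam, against a median of 1.56 over all tested genes. Spp1, Cd24a and Cd44 came to 1.24, 1.73 and 1.96, near that median. Clu turned the other way, at 0.744, with knockout 3 the highest. The order with knockout 2 highest and knockout 3 lowest then held for 8 of 10 members and for 42.9% of tested genes. Clu and Cd24a had every knockout above both controls on this scale, and Spp1 and Cd44 every knockout below. The shares of all tested genes that did so on this scale were not computed.

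**Figure D3:**
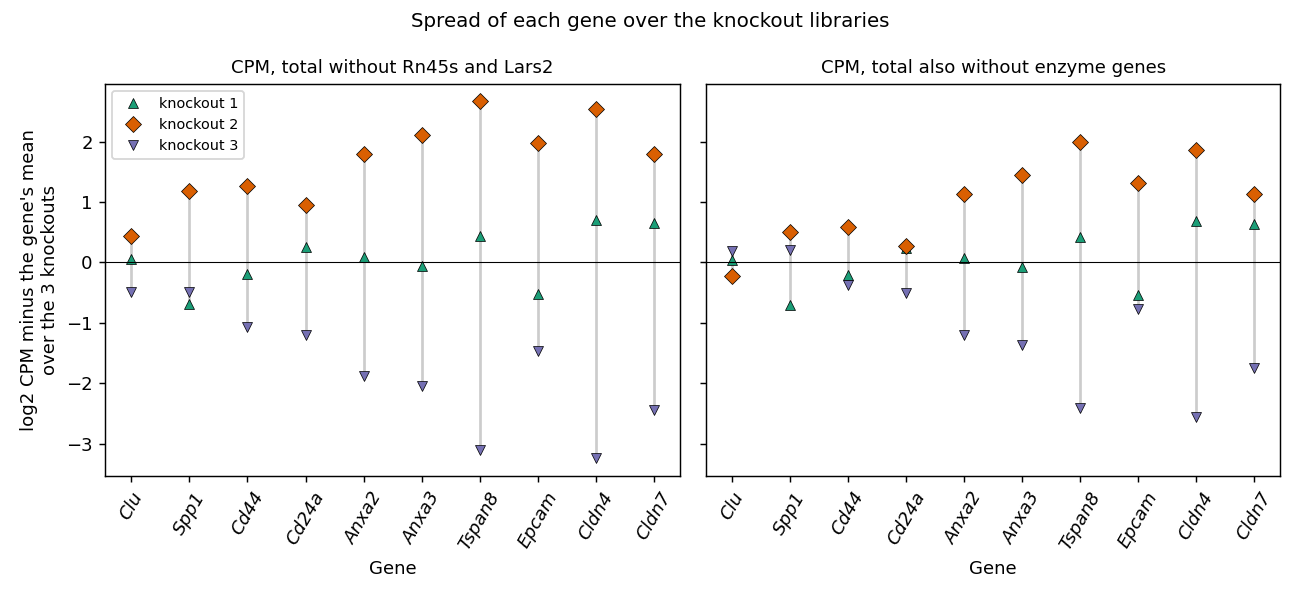
Level of each gene in the 3 knockout libraries as log2 CPM minus the mean of that gene over the knockouts, with totals without Rn45s and Lars2 (left) and also without enzyme genes (right). Grey lines join the lowest and highest knockout. Cldn4 and Tspan8 spread most on both scales, and Clu spreads least on the left.

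Levels were compared between genes per kilobase of annotated exon, with lengths from GENCODE M21. Clu was first in each of the 5 libraries, at 442 CPM per kilobase on average over the controls and 1794 over the knockouts. In the knockouts Cldn4 (106), Spp1 (104) and Cd24a (97.1) followed, and their order changed between libraries, with Cldn4 at 244 CPM per kilobase in knockout 2 and 4.45 in knockout 3. Cldn7 (39.1), Anxa2 (31.9), Epcam (31.5), Tspan8 (27.5) and Anxa3 (10.1) came next, and neighbours in this order overlapped over the 3 libraries. Cd44 was last in each knockout, at 0.971 to 4.88 CPM per kilobase. In the controls Spp1 came second, with 270 and 236 CPM per kilobase, and in control 2 it lay close to Clu at 255.

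Other genes of duct cells and metaplasia gave no calls, with 0 of 25 tested of 30 listed. Their sums overlapped between groups, at 9094 and 2055 CPM in controls against 4599, 8217 and 5904 CPM in knockouts. Tff2, a trefoil peptide of mucous epithelium, and Krt18, a keratin of simple epithelia, were the most abundant. Krt18 had 696 and 208 CPM in controls against 1415, 2510 and 394 CPM in knockouts, with knockout 3 between the controls. Tff2 had 7080 and 1264 CPM in controls against 1453, 1887 and 5132 CPM in knockouts, highest in knockout 3 among the knockouts, where 9 of the 10 members were lowest. Tff2 alone made up most of the sum of the list in both controls and in knockout 3. Sox9, Krt20, Krt23, Hes1, Onecut1, Cftr, Car2, Mmp7, Pdx1 and Dclk1 were among those with no count in either control. The median ratio of knockout 2 to knockout 3 was 13.3 over these genes.

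Other tight junction genes also gave no calls, with 0 of 18 tested of 24. They summed to 400 and 319 CPM in controls against 354, 835 and 105 CPM in knockouts. Cldn3, a claudin of the same kind of epithelium, had 74.1 and 0 CPM in controls against 148, 294 and 34.4 CPM in knockouts. Knockout 2 was highest for 17 of the 18 and knockout 3 lowest for all 18, with a median ratio between them of 8.03.

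Among other annexins 0 of 6 tested passed, and 3 of the 6 had a positive log2 fold change. Their sums overlapped between groups, at 400 and 153 CPM in controls against 135, 344 and 75.9 CPM in knockouts. Anxa1 and Anxa5, the most abundant, stood lower in each knockout than in either control, a pattern found in 11.2% of tested genes. Anxa1, an inhibitor of inflammation, had 104 and 69.4 CPM in controls against 16.5, 65.6 and 4.78 CPM in knockouts. Anxa5 had 118 and 69.4 CPM against 21.2, 62.2 and 9.86 CPM. Neither passed the test (adjusted p = 0.586 and 0.583, edgeR). The 5 genes listed as S100 partners of annexins, of which S100a6 is also in the duct list, summed to 711 and 542 CPM in controls against 220, 697 and 48.7 CPM in knockouts, with none called.

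Partners of osteopontin and CD44 stood lower in the knockouts in sum, without a call among 11 tested of 18. The sum was 1096 and 653 CPM in controls against 212, 561 and 85.5 CPM in knockouts, so every knockout lay below both controls. Itgb1, an integrin subunit, had 370 and 250 CPM against 47.5, 84.9 and 15.5 CPM (adjusted p = 0.231, edgeR). Itgav, the integrin subunit of the classical osteopontin receptor, had 163 and 125 CPM against 12.4, 27.2 and 11.7 CPM (adjusted p = 0.243). Both, the most abundant of the list, stood at lower values in all 3 knockouts than in either control, as Spp1 and Cd44 did. That pattern was found in 11.2% of tested genes. The median log2 fold change was -1.54 over the 11 partners tested, beside 0.22 over all genes tested in the same fit. In a separate fit of genes with at least 1 count in every library, the all-gene median was -1.38. The partners were not restricted in that way, so that value is not a matched comparison. Other tetraspanins (0 of 15 called) summed to 548 and 222 CPM in controls against 294, 521 and 198 CPM in knockouts, and the groups overlapped. Clusterin receptors and other apolipoproteins (0 of 5 called) overlapped too, at 459 and 41.7 CPM in controls against 367, 565 and 116 CPM in knockouts. Apoe, another secreted apolipoprotein, had 119 and 0 CPM in controls against 346, 483 and 90.3 CPM in knockouts.

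Several members are made by cells other than acinar or duct cells, and markers of those cells had low sums that rest on few control counts. Receptor genes of olfactory and vomeronasal neurons had 102 counts in each control, so these sums do not show that such cells were present in the controls. Macrophage markers, 13 genes, summed to 222 and 208 CPM in controls, from 15 counts in each, against 151, 549 and 89.1 CPM in knockouts. Cd68, Lyz2, C1qc, Fcer1g and Tyrobp were among 7 of these genes without a control count. Lymphocyte markers, 11 genes, came to 311 and 125 CPM in controls, from 21 and 9 counts, against 21.5 to 106 CPM in knockouts. Ptprc was among those without a control count. Fibroblast markers came to 59.2 and 222 CPM in controls, from 4 and 16 counts, against 51.7 to 212 CPM in knockouts. Endothelial markers came to 0 and 83.3 CPM, from 0 and 6 counts, against 52.0 to 230 CPM. Islet markers came to 104 and 708 CPM, from 7 and 51 counts, against 191, 1021 and 223 CPM. Erythroid markers were at or near 0, with 2 counts in all. Macrophage, lymphocyte, fibroblast, endothelial and islet sums were each highest in knockout 2 among the knockouts, as the members were, and their part in the spread of Spp1, Cd44, Cd24a and the other members was not tested.

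**Figure D4:**
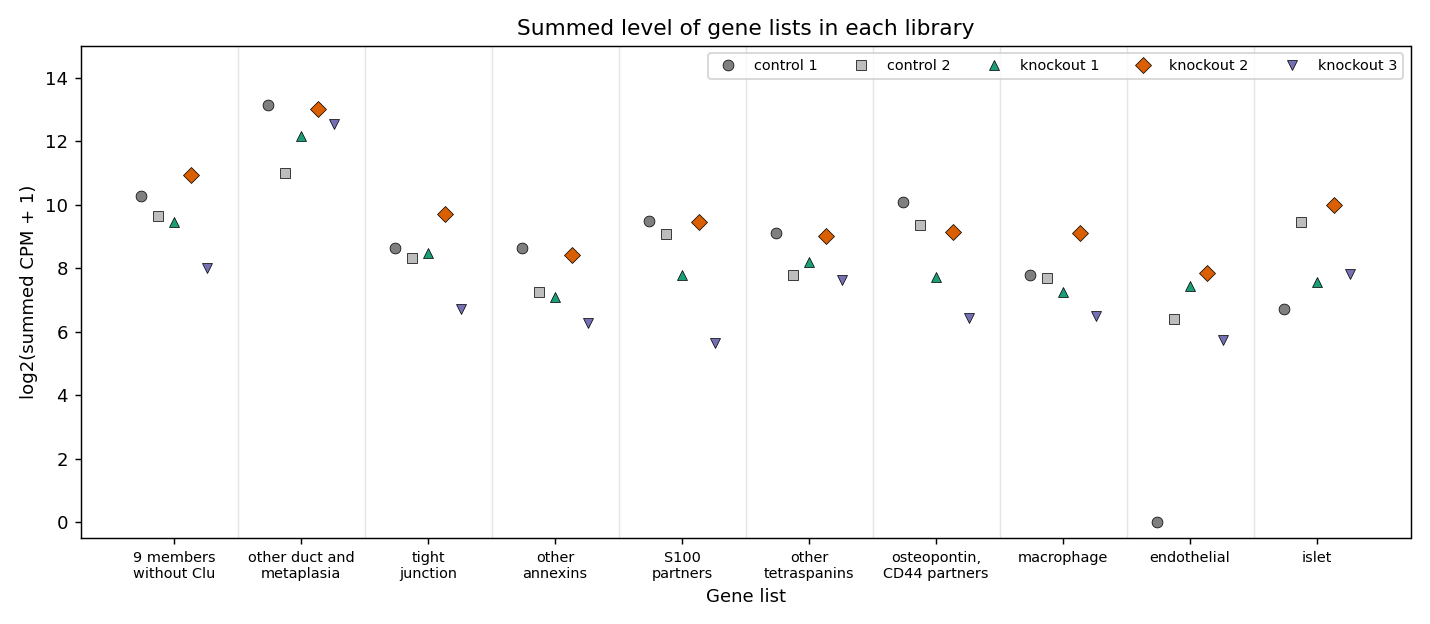
Summed level of gene lists in each library as log2(summed CPM + 1), with 1 point per library and 0 for a list without a count. Knockout 2 is the highest knockout in each list shown, and the 9 members without Clu overlap between groups.

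The genes whose pattern over the 5 libraries was most like the summed members were sought among 577 other genes with at least 3 counts in every library. Likeness was the root mean square difference of centred log2 CPM. Ptms, which encodes parathymosin, came first at 0.199, with 207 and 111 CPM in controls against 347, 584 and 202 CPM in knockouts. Rps9 (0.257) and Rplp0 (0.293), ribosomal protein genes, Eef1a1 (0.267), a translation elongation factor, and H1f0 (0.303), a linker histone, followed. Because Clu makes up most of the sum, this is chiefly the pattern of Clu.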

How the data were processed

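RNA of primary acinar cells was measured in 5 libraries, 2 control and 3 knockout. The authors' deposited files list raw read counts for each gene symbol, not normalized and without unassigned reads. For the build mm9 the submitters' processing notes give Cuffdiff 2.2.1.5, Cuffnorm 2.2.1.2, HTSeq 0.9.1 and TopHat2 2.1.1, with no order. The annotation, the strand setting and the handling of multiply matching reads are steps not given in the sources used here. Per the labels' protocols the library kit was TruSeq RNA v2, which does not mark strand.

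After removal of Rn45s and Lars2, these counts were tested with edgeR 4.0.16 (R 4.3.3; quasi-likelihood, group alone in the model), with library sizes set to the remaining total and filterByExpr, at an adjusted p (Benjamini-Hochberg, all genes tested) under 0.05. These sizes put fold changes on the scale of the printed CPM. TMM on all counts was kept as an alternative. Standard errors are the log2 fold change over the root of its F statistic. Pooled ratios have exact (Clopper-Pearson) 95% intervals of counting error. Exon lengths and shared 50-base words came from GENCODE M21, a later build, by symbol, and promoters from RefSeq. The 10 members and 15 other lists were chosen with earlier results of these data known. Named genes were all members and, from each list, up to 4 called or the 2 most abundant, and the 5 genes most like the summed members. Not every gene the rule takes is reported. Motifs and the further genes named were chosen after values were seen. Alternatives were 6 other scalings, 3 filters, DESeq2 1.42.0, limma-voom 3.58.1, a replicate block and each library left out.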

Additional observations from a re-analysis of the deposited data

How the results depend on the processing

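Of 167 alternative values of the members' log2 fold changes, 15 had the opposite sign, all for Spp1, Anxa2 and Anxa3. Spp1 became 0.40 with TMM on all counts, 0.46 with TMM without Rn45s and Lars2, 0.01 with RLE, 1.04 with totals over all counts and 0.01 with DESeq2. Anxa2 became 0.61, 0.68, 0.22, 1.46 and 0.22 in that order, and with a library left out it ran from -1.99 to 0.10. Anxa3 became 0.00, 0.07 and 0.87 with both TMM scalings and totals over all counts, and ran from -2.87 to 0.40 with a library left out. In 13 of 17 alternative fits no member was called. Clu alone was called (1 member) with totals over all counts, with at least 1 count in every library, where Tspan8, Epcam and Cldn7 were not tested, and without control 1 (range with a library left out 0 to 1), and 2 members with DESeq2. No alternative called a member lower. The members' median log2 fold change, 1.27, ran from -0.72 with at least 1 count in every library to 3.54 with totals over all counts, and from 0.17 to 1.71 with a library left out. Over all genes tested, the median was -1.38 with at least 1 count in every library and 2.73 with totals over all counts. The number of members with every knockout above both controls was 2 on totals also without enzymes, 4 on totals over all counts, and 1 to 5 with a library left out. No share over all genes was taken for these settings. The ratio of summed CPM was 0.955 without Clu.

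The counts of all genes called higher and lower, 16 and 133, were 5 and 27 with TMM on all counts, 147 and 71 with TMM without Rn45s and Lars2, 21 and 81 with RLE, 11 and 354 with upper quartile factors, 25 and 139 on totals also without enzymes, and 149 and 19 on totals over all counts. They were 19 and 898 without a low-count filter, 19 and 388 with at least 1 CPM in 2 libraries, 11 and 330 with at least 1 count in every library, 753 and 310 with DESeq2, and 0 and 43 with limma-voom, where 773 genes had an unadjusted p under 0.05. With a library left out they ran from 0 to 19 and from 4 to 378, lowest without knockout 1. A lone control is assumed there to vary like the knockouts. With the replicate number as a block they were 4 and 5, and no member changed its call. Differences between libraries 1 and 2 of the groups correlated at 0.08 over 583 genes, so the numbers were not taken to pair the samples. The cause of these changes was not tested. Control depth limits these values, with at most 12 control counts in all for 6 members (Cd44, Anxa3, Tspan8, Epcam, Cldn4 and Cldn7).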
